A study of Mus musculus with 8 samples.

Results

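The 41 genes described here encode the machinery that brings proteins into mitochondria and the chaperones that receive them in the matrix. They were taken from the 55401 genes of the count table by symbol: names that start with Timm or Tomm and a number, Pmpca and Pmpcb, and a fixed list of Samm50, Mtx1, Mtx2, Mtx3, Pam16, Dnajc19, Grpel1, Grpel2, Hspa9, Hspd1, Hspe1, Chchd4 and Gfer. The RNA came from HSCs (haematopoietic stem cells, which sustain all blood lineages) in the marrow of C57BL/6 mice aged 8 weeks. All 8 libraries came from Nynrin fl/fl marrow, with both Nynrin alleles flanked by loxP sites. The 4 Nynrin CKO libraries also carried Tie2-Cre, a Cre recombinase under a promoter active in endothelial and blood cells, so that deletion is not restricted to HSCs, while the 4 controls, labelled wild type, are described without it. Cre was thus present in 1 group only, so an effect of Cre and an effect of Nynrin loss cannot be told apart. About 3000 sorted cells are given per sample, and the labels do not say whether libraries stand for individual animals, so the spread behind each p-value may be technical.

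Nearly all mitochondrial proteins are made in the cytosol as precursors. The translocase of the outer membrane (TOM) is their common entry gate. From there, beta-barrel proteins go to the sorting and assembly machinery (SAM), small cysteine-rich proteins to a disulfide relay in the intermembrane space, carrier proteins through the small TIM chaperones to the TIM22 translocase, and precursors with a presequence to the TIM23 translocase. A motor built around the matrix Hsp70 pulls presequence proteins through TIM23, a peptidase removes the presequence, and the Hsp60 and Hsp10 chaperonin folds many of the products. The series title ties Nynrin to the mitochondrial permeability transition pore, and the comparison asks how these genes differ in HSCs where Nynrin is deleted.

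Of the 41 genes, 39 had enough counts to be tested, and 2 rose in Nynrin CKO: Grpel1, the nucleotide exchange factor of matrix Hsp70, and Timm17a, a channel subunit of TIM23. None fell. Both calls used edgeR's quasi-likelihood test with an adjusted p under 0.05 over 27573 genes, of which 2.22% were called higher and 0.588% lower. A further 18 genes were higher at an unadjusted p under 0.05, which makes 20 of 39 (51.3%) against 13.2% of all tested genes, and none was lower at that level against 5.78%. Those 20 become 13 without abundant genes, 10 with a trend on length and GC content removed, 7 without control 3, 4 with Nynrin CKO libraries 1 and 2 and 3 and 4 summed, and 1 with scaling by total counts. Of all tested genes, these fits had 2373, 2986, 1788, 1568 and 1105 higher at that level, against 3629 before. The 20 become 24 in controls 1 to 3 with Nynrin CKO 1 and 2, 25 without control 4 and 25 with limma-voom. All tested genes then had 3827, 3931 and 3893. A term for the library sets described below gave 22, and 3599 of all tested genes. All 4 Nynrin CKO libraries lay above all 4 controls for 12 genes (30.8%, against 9.52% of all tested genes) and below them for none (against 4.83%). With total-count scaling the groups lay apart for 2 genes only, Grpel1 and Timm50 (5.13%, against 2.73% of all tested genes). Values for 37 of 39 genes were above 0 on the log2 scale (94.9%, against 44.5%), a count that falls to 26 when libraries are scaled by total counts alone. The median log2 fold change, Nynrin CKO over control, was 0.32 for these genes and -0.089 for all tested genes.

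Part of that gap goes with expression level. Among the 9862 tested genes with a mean of at least 10 CPM (read counts scaled to library size), 67.1% had a log2 fold change above 0, 5.82% were called higher, 31.6% were higher at an unadjusted p under 0.05 and 22.4% had all Nynrin CKO libraries above all controls. Of the import and chaperone genes, 37 reach that level. Of these, 37 were above 0, 2 were called, 20 were higher at an unadjusted p under 0.05 and 12 lay apart. The 2 calls are thus a share near that of other genes at this level. The median was 0.36 for the 37 genes and 0.18 for all 9862, and 29 of the 37 lay above the latter.

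Counts per library summed to between 36942835 and 56437299. The CPM are scaled by TMM factors, which correct for differences in composition between libraries. Nynrin, the deleted gene, stood at 41.3, 47.5, 30.1 and 30.4 CPM in controls 1 to 4 and at 12.7, 12.3, 8.24 and 8.22 CPM in Nynrin CKO 1 to 4, a log2 fold change of -1.85 (SE 0.22, adjusted p = 0.0345). Controls 1 to 3 and Nynrin CKO 1 and 2 held 891 to 1670 CPM, before TMM scaling, of reads on olfactory and vomeronasal receptor genes, and control 4 and Nynrin CKO 3 and 4 held 142 to 225. The libraries fall into these sets whatever their genotype, and the labels name no batch. Nynrin CKO libraries 1 and 2, and 3 and 4, were more alike than any controls: the chi-square of their counts per degree of freedom was 18.7 and 15.4, against 31.5 to 59.5 between controls and 178 to 186 across the Nynrin CKO pairs. With each pair summed, none of 32849 tested genes was called by edgeR, and 1568 were higher and 1454 lower at an unadjusted p under 0.05. Mitochondrially encoded genes took 9.90% and 9.86% of counts in Nynrin CKO 3 and 4 and 5.98% to 7.44% in the others. The HSC marker list summed to 4330 to 5035 CPM in controls against 4783 to 5836 in Nynrin CKO, with all 15 markers tested. Neutrophil markers summed to 209 to 371 CPM in controls, 488 and 535 in Nynrin CKO 1 and 2, and 4172 and 4202 in Nynrin CKO 3 and 4. Erythroid markers summed to 1163 to 1468 CPM against 2144 to 2519, and B cell markers to 92.5 to 138 CPM against 161 to 1197. Monocyte and macrophage markers summed to 77.6 to 104 CPM against 118 to 322, T and NK cell markers to 75.95 to 120 against 184 to 363, and mast cell and basophil markers to 8.64 to 30.8 against 30.7 to 130.2, each highest in Nynrin CKO 3 and 4. For these, edgeR called 2 of 10, 1 of 10 and 2 of 8 higher, DESeq2 5, 3 and 4, and limma-voom 2, 1 and 1. Of the first lists, 3 of 14 neutrophil, 3 of 13 erythroid and 0 of 10 B cell markers were called higher by edgeR, 9, 3 and 4 by DESeq2 and 1, 3 and 1 by limma-voom, and no marker was at 0 in every library. Some sums rest on few genes. In Nynrin CKO 3, Ighm held 1012 of 1197 CPM of the B cell list, and Nkg7 267 of 363 of the T and NK list. In Nynrin CKO 1, Car2 held 2181.5 of 2519 CPM of the erythroid list. Log2 fold changes were above 0 for 8 of 10, 7 of 10 and 11 of 13 genes of these lists. Pax5 (-0.14), Cd3d (-0.83) and Slc4a1 (-1.03) were among those below 0. In bulk RNA, fewer cells of a type and less RNA per cell cannot be told apart. Whether other cells were present, and their part in the results below, was not tested.

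The promoters of the genes were compared by sequence, since many of the genes lay on the same side of 0. RefSeq windows of 250 bases before to 50 after a start (GRCm38.p6) were found for 36 of the 41 genes, 39 windows in all, and 32841 such windows served as background. Both strands were searched for 6 short motifs, and a match says only that the letters are there. The ETS site CCGGAAGT was present in 23.1% of the windows of these genes and 3.89% of all windows, and the E-box CACGTG in 20.5% against 7.15%. Shares were 5.13% against 2.71% for the NRF1 core motif GCATGCGC, 7.69% against 7.86% for the heat shock element GAANNTTC, 28.2% against 37.4% for the CCAAT box CCAAT and 0 against 0.895% for the amino acid response element TGATGCAA. The windows of these genes had a median GC content of 59.7% against 52.7%; its part in these shares was not tested.

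The sites below are shown because they belong to the chaperonin pair, to both genes that rose and to genes of contrasting change, with the motif in capitals and each run given 5′ to 3′ on the strand of its gene. The heat shock element of the chaperonin pair lies 84 bases before the Hspe1 start (chr1:55088053-55088082, plus strand), and Timm9 has another (chr12:71136854-71136883, minus strand).
Hspe1: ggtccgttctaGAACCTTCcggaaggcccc
Timm9: taggctttctaGAAATTTCgacagattccg
NRF1 core motifs were found in Grpel1 (chr5:36465138-36465167, plus strand), 36 bases before its start, and in Timm13 (chr10:80901143-80901172, minus strand).
Grpel1: aaggggcgtccGCGCATGCtcagtgtgggc
Timm13: ttatattgtacGCATGCGCagcggggaggt
ETS sites are shown for Timm23 (chr14:32201921-32201950, minus strand), Pmpcb (chr5:21737133-21737162, plus strand), Mtx2 (chr2:74825776-74825805, plus strand), Timm10 (chr2:84827026-84827055, plus strand) and Tomm70a (chr16:57121623-57121652, plus strand, listed as Tomm70 in RefSeq).
Timm23: tcgcgcttcccACTTCCGGgccgcacacag
Pmpcb: ggagtcatgacCCGGAAGTacatctccact
Mtx2: gggcggagcagCCGGAAGTgccggcgcgcg
Timm10: tagacttccttCCGGAAGTgacccacgtgc
Tomm70a: gccttctgaccCCGGAAGTggttctcccct
The 209 bases upstream of the annotated Timm17a transcript (chr1:135313779-135313987, minus strand) hold CCAAT boxes 109 and 84 bases before the RefSeq start, and none of the other motifs.
Timm17a: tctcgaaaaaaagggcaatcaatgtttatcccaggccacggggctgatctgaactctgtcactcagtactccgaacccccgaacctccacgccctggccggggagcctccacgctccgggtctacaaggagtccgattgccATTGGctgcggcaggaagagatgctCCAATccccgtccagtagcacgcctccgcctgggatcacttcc
An ETS site lies in the windows of 9 genes, of which 8 were tested, with log2 fold changes from -0.39 for Mtx3, the most negative of the set, to 0.59 for Timm23.

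**Figure D1:**
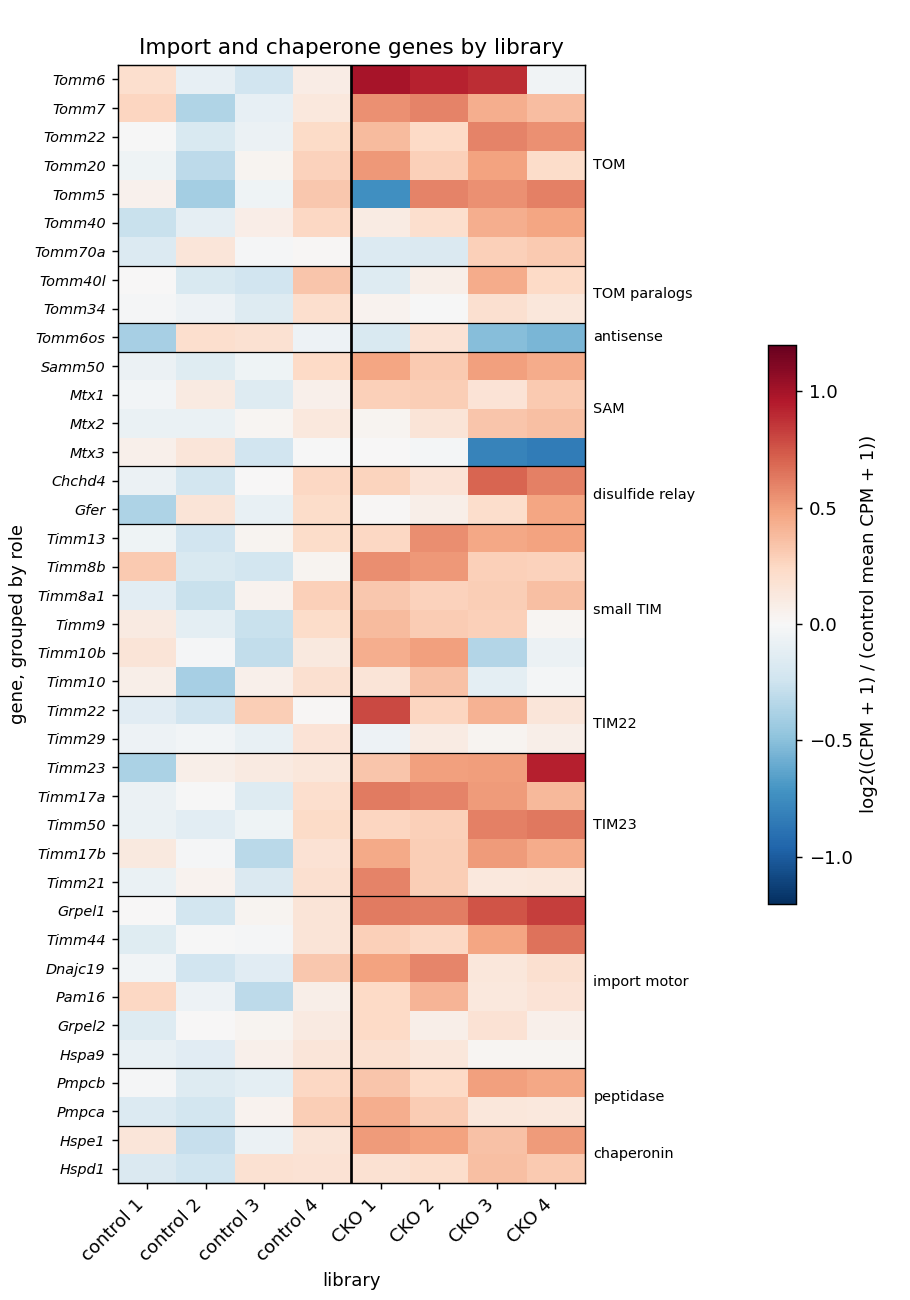
Level of each tested gene in each of the 8 libraries, as log2 of (CPM + 1) over (control mean CPM + 1), with genes in rows grouped by role, libraries in columns and the black line between the groups. Red cells dominate the 4 Nynrin CKO columns, Mtx3 and Tomm6os are blue in Nynrin CKO 3 and 4, and among controls, control 4 is the highest for 28 of 39 genes.

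The TOM complex had 7 genes tested, with a median log2 fold change of 0.39, 4 at an unadjusted p under 0.05 and none past the adjusted threshold. Here and in the roles below, such counts are read against the 31.6% higher at that level among all genes with at least 10 CPM. Tomm20, the receptor that binds presequences, measured 90.1, 74.9, 95.5 and 114 CPM in controls 1 to 4 and 135, 114, 131 and 109 CPM in Nynrin CKO 1 to 4. Control 4 lay within the Nynrin CKO range, and the log2 fold change was 0.39 (SE 0.14, adjusted p = 0.168). Tomm22, the central receptor, measured 47.5, 41.8, 45.2 and 55.9 CPM in controls against 62.2, 56.3, 72.2 and 69.9 CPM in Nynrin CKO. Its groups did not overlap, although control 4 at 55.9 CPM and Nynrin CKO 2 at 56.3 CPM nearly met (log2 fold change 0.45, SE 0.12, adjusted p = 0.0806). Tomm40, the pore itself, measured 61.5, 68.7, 78.7 and 88.3 CPM in controls against 79.8, 85.8, 101 and 103 CPM in Nynrin CKO. Here only Nynrin CKO 3 and 4 lay above all controls, with a log2 fold change of 0.31 (adjusted p = 0.265).

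Tomm70a, the receptor for carrier precursors handed over by cytosolic chaperones, measured 45.3, 56.2, 50.5 and 51.5 CPM in controls against 45.4, 45.1, 62.1 and 63.7 CPM in Nynrin CKO. The Nynrin CKO libraries split around the controls, with 1 and 2 at the level of the lowest control and 3 and 4 above all of them. The log2 fold change was 0.087 (adjusted p = 0.822) over all libraries, -0.16 in the libraries with more receptor reads and 0.29 in the others. The gene overlaps Nit2 on the other strand, which holds 85.4% as many counts, and no source used here says whether the counting used strand. The 3 small subunits that stabilise the pore behaved unevenly. Tomm7 had its groups apart, at 34.4, 21.9, 26.5 and 31.2 CPM in controls against 41.99, 43.6, 38.8 and 37.1 CPM in Nynrin CKO (log2 fold change 0.50, adjusted p = 0.0948).

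Tomm6 had the largest log2 fold change of all 39 genes, 0.78 (SE 0.23, adjusted p = 0.0971), and did not pass. It measured 18.1, 14.5, 13.2 and 16.6 CPM in controls against 32.00, 30.5, 29.7 and 15.1 CPM in Nynrin CKO, so that Nynrin CKO 1 to 3 lay above all controls and Nynrin CKO 4 among them. Reads for Tomm6 can also be assigned to Gm21981, a record on the same strand that shares 859 of its exon bases. Summed over both records, the values were 32.9, 26.1, 28.2 and 37.8 CPM in controls against 62.8, 49.2, 39.5 and 36.9 CPM in Nynrin CKO, with an exact two-sided permutation p of 0.0571. Tomm5 measured 43.5, 31.4, 40.6 and 52.7 CPM in controls against 24.9, 64.02, 62.1 and 64.3 CPM in Nynrin CKO, where Nynrin CKO 1 was below every control and the other 3 above (log2 fold change 0.36, adjusted p = 0.598). Of the relatives outside the core complex, Tomm40l, a Tomm40 paralog, had a log2 fold change of 0.17, and Tomm34, a cytosolic cochaperone of precursors, 0.091, both with overlapping groups. Tomm20l had 0 to 21 counts per library and was not tested. Tomm6os, a record antisense to Tomm6 at 1.49 to 3.19 CPM, had -0.33 (adjusted p = 0.699).

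**Figure D2:**
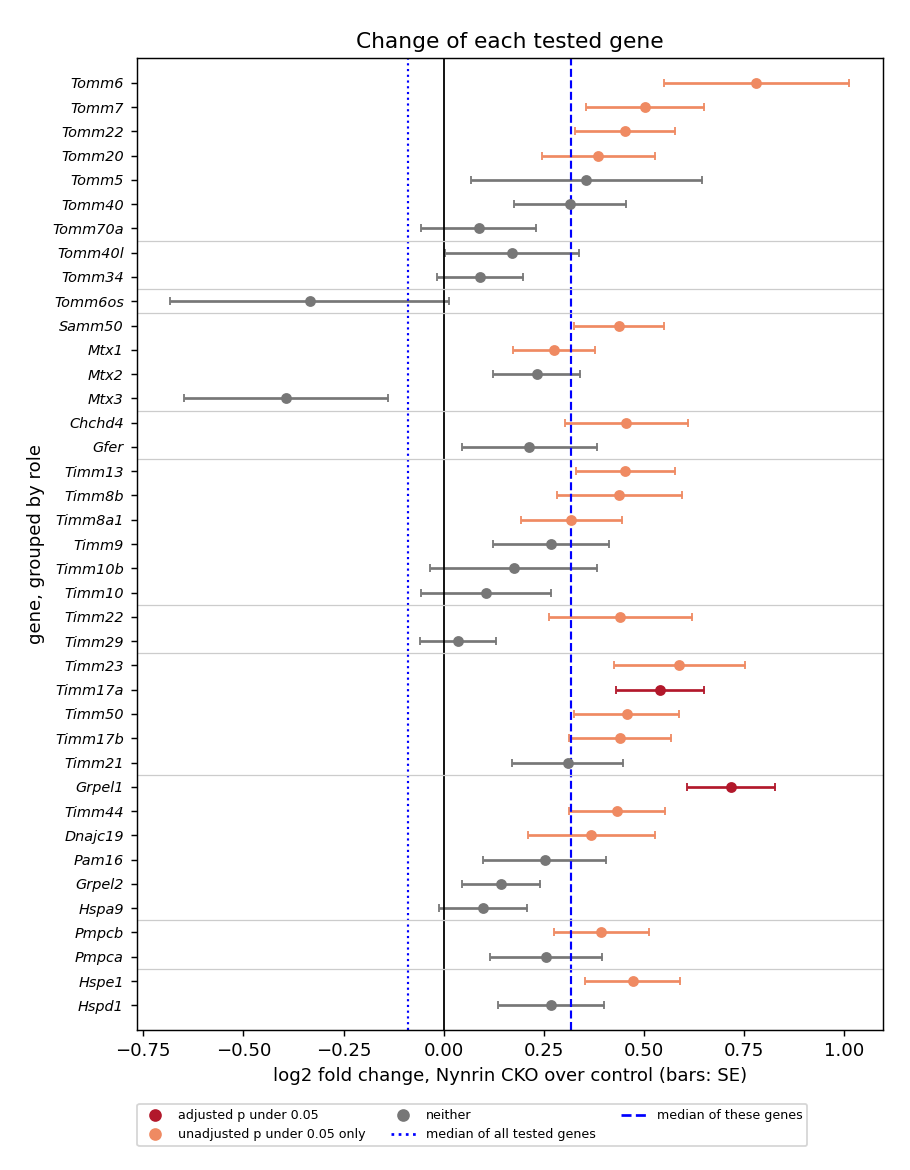
Log2 fold change of each of the 39 tested genes, Nynrin CKO over control, with SE bars and genes grouped by role; colour gives the adjusted and unadjusted p, and dotted and dashed lines the medians of all tested genes and of these genes. Grpel1 and Timm17a pass the adjusted threshold, and 37 points lie right of 0 with TMM scaling (26 with total counts alone).

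In the SAM complex, Samm50, the barrel that inserts other beta-barrels, had its groups apart at 96.6, 91.9, 97.8 and 120.1 CPM in controls against 142, 127, 144 and 139 CPM in Nynrin CKO. Its log2 fold change was 0.44 (SE 0.11, adjusted p = 0.0667), with an exact permutation p of 0.0286, the smallest that 4 against 4 libraries allow. All 12 genes whose groups lay apart have that same permutation p, which treats the 8 libraries as independent although the Nynrin CKO libraries pair, as given above. The metaxins, which sit on the cytosolic face of SAM, differed among themselves. Mtx1 had its groups apart, at 30.3, 33.5, 27.7 and 32.5 CPM in controls against 38.1, 38.1, 34.9 and 38.9 CPM in Nynrin CKO (log2 fold change 0.28, adjusted p = 0.172), and it overlaps Gm43737, which holds 58.2% as many counts. Mtx2 overlapped by 1 library, at 52.5, 52.8, 56.6 and 60.97 CPM in controls against 57.1, 62.2, 70.6 and 71.8 CPM in Nynrin CKO, with a log2 fold change of 0.23.

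Mtx3 had the most negative value, a log2 fold change of -0.39 (SE 0.25, adjusted p = 0.479). It measured 11.3, 12.1, 9.09 and 10.8 CPM in controls against 10.9, 10.6, 5.77 and 5.60 CPM in Nynrin CKO. The difference came from Nynrin CKO 3 and 4, which lay below all controls, while Nynrin CKO 1 and 2 lay within the control range. Within the libraries with more receptor reads the log2 fold change was -0.0087, and within the others -0.92. Relative to Mtx2, Mtx3 stood at 0.195 ± 0.0319 in controls against 0.130 ± 0.0588 in Nynrin CKO (SD, n = 4; exact permutation p = 0.143, adjusted 0.594 over 13 such ratios).

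The disulfide relay that folds intermembrane space proteins consists of Chchd4, the oxidoreductase that traps them, and Gfer, the sulfhydryl oxidase that recharges it. Chchd4 measured 55.1, 49.7, 58.1 and 69.1 CPM in controls against 69.8, 65.02, 94.5 and 88.97 CPM in Nynrin CKO. Only Nynrin CKO 2 lay below the highest control, and the log2 fold change was 0.46 (SE 0.15, adjusted p = 0.136). Gfer measured 16.2, 23.7, 19.9 and 24.8 CPM in controls against 21.4, 22.3, 24.5 and 29.8 CPM in Nynrin CKO, with 1 library above all controls and a log2 fold change of 0.21 (adjusted p = 0.585).

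Among the small TIM proteins, which chaperone hydrophobic precursors across the intermembrane space, 6 of 7 genes were tested, with a median log2 fold change of 0.29 and 3 at an unadjusted p under 0.05. Timm13, a subunit of the TIM8-TIM13 chaperone, had its groups apart at 38.5, 33.8, 40.7 and 46.6 CPM in controls against 47.6, 59.2, 55.5 and 56.2 CPM in Nynrin CKO, although control 4 and Nynrin CKO 1 were within 1 CPM (log2 fold change 0.45, SE 0.12, adjusted p = 0.0795). Its partner Timm8a1 measured 48.7, 44.2, 55.1 and 65.5 CPM in controls against 67.1, 64.97, 65.6 and 68.8 CPM in Nynrin CKO, where the Nynrin CKO libraries were close together and control 4 lay among them (log2 fold change 0.32, adjusted p = 0.205). Timm8b had a log2 fold change of 0.44 (adjusted p = 0.158), and the overlapping record Nkapd1 holds 66.6% as many counts. Timm8a2 had at most 5 counts in any library.

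Timm9 and Timm10 form the chaperone that serves TIM22. Timm9 measured 22.6, 19.1, 17.2 and 24.5 CPM in controls against 27.4, 26.01, 25.7 and 21.2 CPM in Nynrin CKO, and Timm10 26.5, 18.9, 26.2 and 28.99 CPM and 28.1, 32.3, 23.2 and 24.8 CPM. Both sets of groups overlapped, with log2 fold changes of 0.27 and 0.11 (adjusted p = 0.375 and 0.804). For Timm10 the within-set values had opposite signs, 0.34 and -0.27. Timm10b, the subunit that docks the chaperone on TIM22, had 0.17, and 0.53 and -0.34 within sets. Of TIM22 itself, the channel gene Timm22 measured 19.02, 17.8, 25.99 and 21.1 CPM in controls against 37.05, 25.3, 28.3 and 23.3 CPM in Nynrin CKO. Nynrin CKO 1 stood highest, 2 Nynrin CKO libraries lay within the control range, and the log2 fold change was 0.44 (SE 0.18, adjusted p = 0.213). Timm29, a further TIM22 subunit, had 0.035.

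TIM23, the presequence translocase, had the highest median of the roles with more than 1 gene, 0.46 over 5 genes. Unadjusted p was under 0.05 for 4 of them, and the same number had their groups apart. Among all genes with at least 10 CPM, 31.6% were higher at that level and 22.4% had all Nynrin CKO libraries above all controls. With total-count scaling, Timm50 alone of the 5 had its groups apart. Summed over the 5 genes, TIM23 stood at 268, 286, 275 and 332 CPM in controls against 388, 384, 412 and 441 CPM in Nynrin CKO, 1.40 times as high on average, or 1.16 times without TMM factors, where the groups overlapped. Timm17a (chr1:135295213-135313778, mm10) is the gene that rose. It measured 48.02, 50.3, 45.4 and 58.4 CPM in controls 1 to 4 and 78.3, 76.8, 72.6 and 66.4 CPM in Nynrin CKO 1 to 4. The lowest Nynrin CKO library, at 66.4 CPM, was above the highest control, at 58.4 CPM. The log2 fold change was 0.54 (SE 0.11, adjusted p = 0.0438).

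Timm17b (chrX:7899357-7908351), the paralog that takes the place of Timm17a in other TIM23 complexes, measured 41.05, 37.4, 29.98 and 42.96 CPM in controls against 52.1, 46.8, 54.5 and 51.98 CPM in Nynrin CKO. Its groups were also apart, and the log2 fold change of 0.44 (SE 0.13) did not pass (adjusted p = 0.0919). The ratio of Timm17a to Timm17b was 1.35 ± 0.141 in controls against 1.44 ± 0.166 in Nynrin CKO (SD, n = 4; exact permutation p = 0.486), so no difference between the paralogs in response was detected. Timm23 (chr14:32180162-32201898), the channel partner of Timm17 proteins, measured 53.8, 73.8, 75.6 and 77.2 CPM in controls against 88.3, 99.1, 99.6 and 135 CPM in Nynrin CKO. Control 1 was the lowest and Nynrin CKO 4 the highest of the 8, and the log2 fold change was 0.59 (SE 0.16, adjusted p = 0.0831). Timm50, which guides precursors to the channel, measured 90.9, 87.8, 92.7 and 112 CPM in controls against 115, 117, 146 and 149 CPM in Nynrin CKO. Nynrin CKO 1, at 114.8 CPM, lay just above control 4, at 112.3 CPM (log2 fold change 0.46, SE 0.13, adjusted p = 0.0893). Timm21, which links TIM23 to TOM and to the respiratory chain, had 0.31 (adjusted p = 0.271) with overlapping groups.

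**Figure D3:**
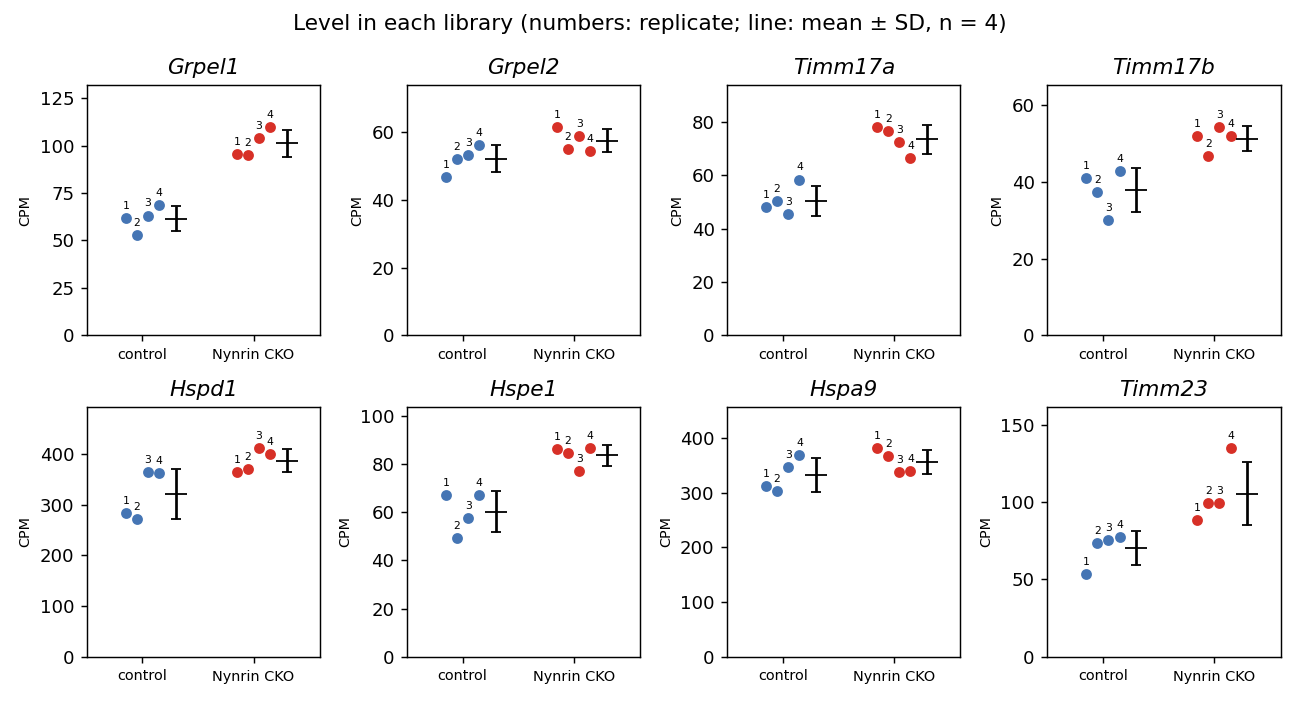
CPM of 8 genes in each library, with the replicate number above each point and the mean ± SD of 4 libraries beside it; each axis starts at 0. Grpel1 and Timm17a stand apart between groups, as do Timm17b, Hspe1 and Timm23, while Grpel2, Hspd1 and Hspa9 overlap.

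In the import motor, Grpel1 (chr5:36464998-36474080, mm10), which releases ADP from matrix Hsp70, rose. It measured 61.7, 52.6, 63.1 and 68.6 CPM in controls 1 to 4 and 95.3, 94.9, 104 and 110.0 CPM in Nynrin CKO 1 to 4. Every Nynrin CKO library was above 94 CPM and every control below 69. The mean was 61.5 ± 6.67 CPM in controls against 101 ± 7.30 CPM in Nynrin CKO (SD, n = 4), a log2 fold change of 0.72 (SE 0.11, adjusted p = 0.0345). Its paralog Grpel2, which can serve the same chaperone, measured 46.7, 52.2, 53.3 and 56.4 CPM in controls against 61.7, 54.98, 59.03 and 54.5 CPM in Nynrin CKO. These groups overlapped, with a log2 fold change of 0.14 (SE 0.10, adjusted p = 0.512).

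Grpel1 was thus compared with its paralog and its chaperone within each library, which removes the scaling between libraries. The ratio of Grpel1 to Grpel2 was 1.32, 1.01, 1.18 and 1.22 in controls against 1.54, 1.73, 1.77 and 2.02 in Nynrin CKO. The ratio of Grpel1 to Hspa9 was 0.197, 0.174, 0.182 and 0.186 in controls against 0.250, 0.259, 0.308 and 0.325 in Nynrin CKO. For both ratios all Nynrin CKO libraries were above all controls, with an exact permutation p of 0.0286 and, over the 13 ratios computed, an adjusted p of 0.186. With 13 ratios and 4 against 4 libraries, that correction can be passed only if many ratios reach the smallest p. None of the other 11 ratios had its groups apart, and their permutation p ran from 0.143 to 0.743. Grpel1 had already been called in these same libraries, so its ratios are no independent support for that call. The permutation also treats the libraries as independent although the Nynrin CKO libraries pair, as given above.

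Hspa9 itself, the matrix Hsp70 that drives the motor, measured 313, 302, 347 and 369 CPM in controls against 381, 366, 338 and 339 CPM in Nynrin CKO. Its groups overlapped widely and the log2 fold change was 0.10 (SE 0.11, adjusted p = 0.721). Timm44, the tether between TIM23 and Hsp70, had its groups apart at 48.6, 53.6, 53.5 and 59.9 CPM in controls against 65.8, 64.2, 75.4 and 85.3 CPM in Nynrin CKO (log2 fold change 0.43, SE 0.12, adjusted p = 0.0831). The J protein Dnajc19 measured 36.02, 31.2, 33.5 and 46.4 CPM in controls against 51.6, 55.8, 40.5 and 42.1 CPM in Nynrin CKO. Control 4 lay above Nynrin CKO 3 and 4, and the log2 fold change was 0.37 (adjusted p = 0.246), with 0.68 in the libraries with more receptor reads and -0.17 in the others. Dnajc19 overlaps Fxr1, which holds 135% as many counts, and a processed pseudogene holds 7.52% as many. Pam16, the J-like protein that restrains the motor, measured 19.2, 15.3, 12.7 and 16.8 CPM in controls against 19.1, 21.6, 17.6 and 18.02 CPM in Nynrin CKO, with overlap and a log2 fold change of 0.25 (adjusted p = 0.439).

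The processing peptidase that removes presequences has a catalytic subunit, Pmpcb, and a substrate-binding subunit, Pmpca. Pmpcb measured 49.7, 44.9, 46.2 and 59.7 CPM in controls against 63.3, 59.2, 71.1 and 69.7 CPM in Nynrin CKO. Only Nynrin CKO 2 lay below the highest control, by under 1 CPM, and the log2 fold change was 0.39 (SE 0.12, adjusted p = 0.102). Pmpca measured 135, 130.4, 156 and 187 CPM in controls against 206, 188, 167 and 166 CPM in Nynrin CKO. Nynrin CKO 1 and 2 were the highest here, whereas 3 and 4 were for Pmpcb, and the log2 fold change was 0.26 (adjusted p = 0.381).

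The matrix chaperonin consists of the Hsp60 barrel, Hspd1 (chr1:55077835-55088243), and its Hsp10 lid, Hspe1 (chr1:55088132-55091307), encoded head to head on chromosome 1. Their RefSeq starts are 215 bases apart, around the heat shock element printed above, and the annotated records overlap by 112 bases. Hspd1 measured 284, 271, 365 and 362 CPM in controls against 363, 371, 411 and 399 CPM in Nynrin CKO. Nynrin CKO 1 lay just below control 3, the other 3 above all controls, and the log2 fold change was 0.27 (SE 0.13, adjusted p = 0.320). Hspe1 had its groups apart at 66.9, 49.5, 57.4 and 67.2 CPM in controls against 86.1, 84.7, 77.1 and 86.4 CPM in Nynrin CKO (log2 fold change 0.47, SE 0.12, adjusted p = 0.0646). The ratio of Hspe1 to Hspd1 was 0.190 ± 0.0326 in controls against 0.217 ± 0.0215 in Nynrin CKO (SD, n = 4; exact permutation p = 0.229). The pseudogene record Hspd1-ps3 holds 2.40% as many counts as Hspd1.

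Per kilobase of annotated transcript, with lengths as defined below, the matrix chaperones Hspd1 and Hspa9 had the highest levels of the 41 genes in controls. Hspd1 stood at 132 ± 20.5 CPM per kilobase and Hspa9 at 109 ± 10.1 (SD, n = 4), which overlap within their spread. Hspe1 followed at 77.8 ± 10.98. Timm50 at 63.3 ± 7.34, Timm23 at 59.8 ± 9.34 and Tomm5 at 56.96 ± 11.9 came next, and these 4 levels overlapped within their spread. The pore Tomm40 stood at 45.1 ± 7.11, above its receptors Tomm22 at 30.3 ± 3.83, Tomm20 at 19.1 ± 3.28 and Tomm70a at 8.53 ± 0.748. Of the TIM22 channel, Timm22 stood at 7.45 ± 1.28, and of the SAM genes Mtx3, at 1.72 ± 0.201, lay below Samm50 at 21.95 ± 2.72. Summed over all 41 genes, controls held 2358, 2249.9, 2487 and 2849 CPM and Nynrin CKO libraries 3026, 3011, 3145 and 3136 CPM. The groups did not overlap, and the mean was 1.24 times as high in Nynrin CKO. Without TMM factors the groups overlapped, at 2571, 2510.2, 2877 and 2970.0 CPM in controls against 3110.3, 3081, 2531 and 2525 CPM in Nynrin CKO, and the ratio of the means was 1.03.

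The values were then taken within the library sets. Among the libraries with more receptor reads (controls 1 to 3, Nynrin CKO 1 and 2) the median log2 fold change of the 39 genes was 0.38, against -0.043 for all genes, with 36 above 0. Among the others (control 4, Nynrin CKO 3 and 4) it was 0.21, against 0.058 for all genes, with 28 above 0. In both sets 27 genes were above 0. No share of all genes above 0 stands beside these counts. The all-gene medians given with them are not matched for expression level, which over all libraries narrowed the gap (0.36 against 0.18 at 10 CPM or more). Control 4 and Nynrin CKO 3 and 4 also held counts for fewer genes, 28914 to 31344 against 40240 to 44562 in the others. Grpel1 kept its size, with 0.69 and 0.64, while Timm17a had 0.70 and 0.25. In the set with a single control, that control is assumed to vary like the other libraries. Control 4 was the highest control for 28 of the 39 genes, with a median of 0.25 on the log2 scale over the other controls, against -0.26 for all genes. Nynrin CKO 3 and 4, in which the sums of neutrophil and B cell markers were highest, had a median of 0.025 for these genes over Nynrin CKO 1 and 2, with 19 genes lower and 20 higher, against -0.25 for all genes.

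The calls depended on which libraries entered. Leaving out control 4 gave 7 genes called higher: Grpel1, Timm17a, Samm50, Timm50, Tomm22, Timm13 and Pmpcb. In that fit 1129 of all 30260 tested genes were called higher. Leaving out any of the other 7 libraries ended both calls, with adjusted p between 0.0545 and 0.183 for Grpel1 and between 0.0700 and 0.272 for Timm17a, in fits where 1 to 6 of all tested genes were called higher. A term for the library set gave 5 genes (Grpel1, Timm17a, Samm50, Timm50 and Tomm22), DESeq2 6 and limma-voom 12, and Grpel1 and Timm17a were among them in each of these. No alternative called any of the 39 genes lower. Scaling by total counts moved the median of all tested genes to -0.34 and that of these genes to 0.065. Relative to all tested genes, the median was 0.41 higher with TMM or upper-quartile factors and 0.40 higher with RLE factors or total counts. Scaling factors shift all genes nearly together, so this gap could hardly change between them. Over all alternatives it ran from 0.24, with a filter of 1 CPM in 4 libraries, to 0.64, with no filter or without control 4. With a library set term, or with the length and GC trend removed, it was 0.30.

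**Figure D4:**
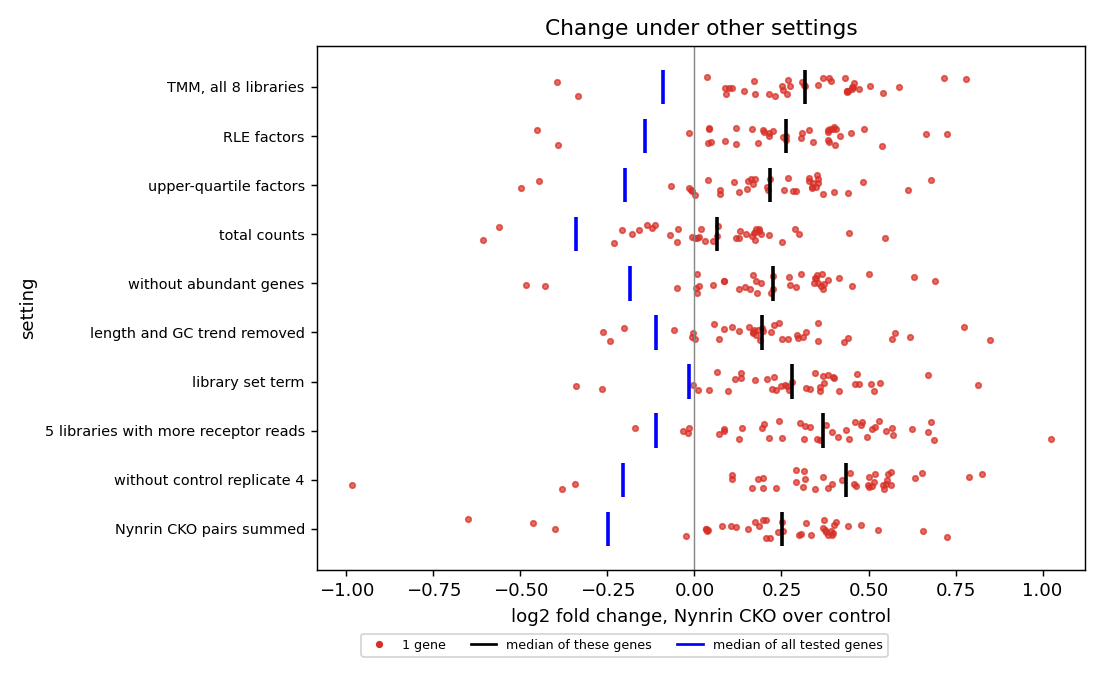
Log2 fold change of the 39 or 40 tested genes under 10 settings (red points, 1 per gene), with the median of these genes in black and of all tested genes in blue. The black median is right of the blue one in each setting shown, and the points shift together with the scaling: 26 of 39 are above 0 with total counts against 37 with TMM.

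Transcript length goes with the change across all genes in these libraries. Over 16771 genes with a mean of at least 1 CPM, the Spearman correlation between log2 fold change and transcript length was -0.41, and over the 39 genes here -0.33, a description across genes, which are not independent. With these genes cut into 5 length classes of about equal size, the median log2 fold change was 0.39, 0.25, 0.080, -0.10 and -0.18 from the shortest class to the longest. The import and chaperone genes in these classes numbered 11, 10, 9, 6 and 3, with medians of 0.45, 0.31, 0.23, 0.41 and 0.087. In all, 30 of 39 lay above the median of their own class, among them the genes that rose. Grpel1 has a longest protein-coding transcript of 3528 bases and Timm17a of 7280 bases, in classes with negative medians. Whether these isoforms are the ones expressed was not tested. With a trend on length and GC content removed from each library, the median of the 39 genes was 0.19, and the log2 fold change was 0.85 for Grpel1 and 0.77 for Timm17a (adjusted p = 0.0617 and 0.0824).

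**Figure D5:**
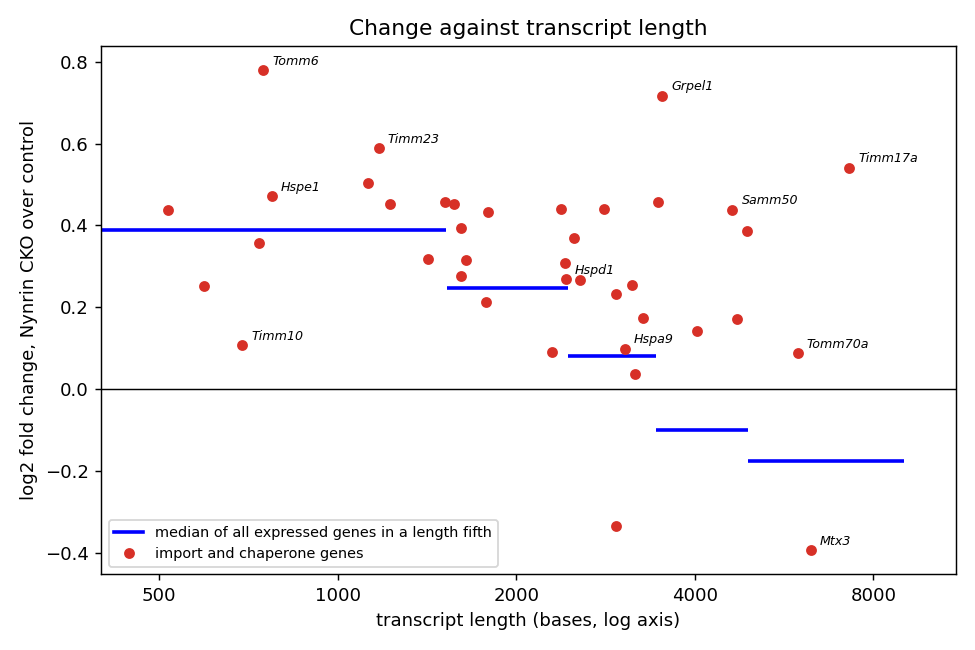
Log2 fold change of the tested import and chaperone genes (red points) against transcript length in bases, as defined below, on a log axis. Blue bars mark the median of all expressed genes in each of 5 length classes. The bars descend from 0.39 to -0.18, and Grpel1 and Timm17a lie far above the bars at their lengths.

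Reads shared with other records touch 13 of the 41 genes, which overlap a record holding at least 10% as many counts as they do. Besides those given above, these include Pam16 with Glis2, Pmpca with Inpp5e, Timm29 with Yipf2, and Timm10b with Arfip2 and Gm45799. The median over the 27 tested genes without such an overlap was 0.39, against 0.32 for all 39. For Grpel1 the largest overlapping record, Tada2b, holds 2.20% as many counts, and Timm17a overlaps none.

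Other genes of mitochondrial protein handling were followed in lists by role. Of 12 further import and sorting genes, such as the intermediate peptidases and the Oxa1l insertase, none rose in edgeR's test, 6 were higher at an unadjusted p under 0.05, and DESeq2 and limma-voom each called 3 higher. A single gene of the list fell: Xpnpep3, an aminopeptidase that trims processed precursors, at 17.9, 19.2, 16.05 and 16.2 CPM in controls against 9.97, 10.5, 9.19 and 8.68 CPM in Nynrin CKO (log2 fold change -0.86, SE 0.13, adjusted p = 0.0345). Its groups lay far apart, in the opposite direction to most import genes. Of 15 mitochondrial proteases and chaperones, none passed in edgeR's test, 10 were higher at an unadjusted p under 0.05, DESeq2 called 1 and limma-voom 6, and the median log2 fold change was 0.36. The smallest p belonged to Phb, a prohibitin of the inner membrane scaffold, at 105, 115, 141 and 167 CPM in controls against 189, 186, 207 and 199 CPM in Nynrin CKO (adjusted p = 0.0739). Beside these counts, 31.6% of all genes with at least 10 CPM were higher at an unadjusted p under 0.05. Of all 27573 tested genes, DESeq2 called 1656 and limma-voom 1649 higher.

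Of 18 substrates of the disulfide relay, 4 rose and none fell, with a median log2 fold change of 0.35. Ndufb7 and Ndufa8, subunits of respiratory complex I, had log2 fold changes of 0.64 (SE 0.11, adjusted p = 0.0382) and 0.66 (SE 0.13, adjusted p = 0.0431). Chchd1, a mitochondrial ribosome subunit, had 0.61 (SE 0.12, adjusted p = 0.0438), and Cox6b1, of complex IV, 0.58 (SE 0.12, adjusted p = 0.0449). Ndufb7 measured 61.3, 50.7, 49.95 and 59.8 CPM in controls against 91.4, 80.1, 83.1 and 92.1 CPM in Nynrin CKO, and all 4 genes had their groups apart. These shares are read against the 5.82% called higher among all genes with at least 10 CPM and the 8.16% in the shortest length class.

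Of 11 genes listed as cytosolic chaperones of precursors, Hsf1 among them, 1 rose in edgeR's test and none fell. In that list 10 were above 0, 2 were higher at an unadjusted p under 0.05, and the median log2 fold change was 0.31. The heat shock transcription factor Hsf1 had a log2 fold change of 0.064, and the abundant cytosolic chaperone Hspa8 one of 0.34 (adjusted p = 0.591). Of the 5 tested factors linked to the mitochondrial unfolded protein response, Ddit3 rose, at 16.5, 14.9, 10.6 and 14.2 CPM in controls against 24.6, 24.8, 20.1 and 23.2 CPM in Nynrin CKO (log2 fold change 0.72, SE 0.16, adjusted p = 0.0478). Atf4 had 0.0024, Atf5 -0.11, at about 1 CPM, and Ubl5 0.24, none of which passed, and the median of the list was 0.0024. Of 11 genes of the MICOS complex and the outer membrane, Micos10 rose, at 45.1, 42.8, 38.9 and 51.02 CPM in controls against 65.2, 63.8, 69.1 and 62.4 CPM in Nynrin CKO (log2 fold change 0.55, SE 0.11, adjusted p = 0.0408), and the median was 0.36. The voltage-dependent anion channels Vdac1, Vdac2 and Vdac3 had log2 fold changes of 0.23, 0.49 and 0.46, none past the threshold.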

How the data were processed

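RNA from sorted HSCs was sequenced in 4 control and 4 Nynrin CKO libraries, grouped by the sample labels. The table the authors deposited holds raw read counts, 1 column per library, per the file headers, and mm10 is the build named in the submitters' processing notes. No source used here names the aligner, the counting program or the strand setting. Per the labels' protocols about 3000 cells were sorted, while the series text also gives a smaller number.

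The test was that of edgeR 4.0.16, run in R 4.3.3 (filterByExpr, TMM factors, quasi-likelihood F-test with robust estimation, Benjamini-Hochberg adjustment over 27573 genes, threshold 0.05). For single genes and ratios, an exact permutation test (two-sided, 70 assignments) was run on log2(CPM + 1) and on log2 ratios. Expressed genes had a mean of at least 1 CPM. Transcript lengths were those of the longest protein-coding transcript of a gene in GENCODE vM21, or of its longest transcript where none was protein-coding. The isoform expressed in these cells may be another. On simulated counts for 24233 genes of this comparison, 49 of 100 genes with a 2-fold change were called, 91 of 100 with a 4-fold change, and 4 of the 24033 without any. The simulated libraries were independent, without the Nynrin CKO pairs or the library sets, so these rates need not hold for the real libraries. No change below 2-fold was simulated, although all values of the import and chaperone genes are below it. No libraries agreed within sampling noise.

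The genes, gene lists and alternatives were chosen with earlier results of these data known, and so was the split of libraries by receptor reads. Every gene of the set is accounted for, with values by library for those that passed, the core subunits, and the largest and most negative change. From each other list, up to 4 passing genes with the smallest p were to be named, or the gene with the smallest p. Results for some genes are not reported here. Hsf1, Hspa8, Atf4, Atf5, Ubl5 and the Vdac genes were named in addition, after their values were seen, as were values by library for Tomm5, Tomm7, Mtx1 and Mtx2. Alternatives were RLE, upper-quartile and total-count scaling, stricter and no count filters, limma-voom 3.58.1 with quality weights, DESeq2 1.42.0, no robust estimation, a replicate block, a library set term, 5 libraries only, summed Nynrin CKO pairs, removal of each library, removal of abundant genes (mitochondrially encoded, ribosomal protein and haemoglobin), and removal of a length and GC spline.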

Additional observations from a re-analysis of the deposited data

Results flagged for a closer look

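In 3 of the 78 groups of 4 libraries examined (39 genes in controls and in Nynrin CKO), 1 library stood far from the other 3 by Dixon's criterion, where chance marks about 1 in 20. Timm23 in control 1 was the lowest control at 53.8 CPM, against 73.8 to 77.2 CPM in the others. Tomm5 in Nynrin CKO 1 was the lowest of its group at 24.9 CPM, against 62.1 to 64.3 CPM. Tomm6 in Nynrin CKO 4 was the lowest of its group at 15.1 CPM, against 29.7 to 32.0 CPM. The overlapping record Gm21981, which shares exon bases with Tomm6, stood at 21.8 CPM in Nynrin CKO 4 and 30.8, 18.7 and 9.76 CPM in Nynrin CKO 1 to 3.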

How the results depend on the processing

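The count of 2 genes called higher became 0 with RLE factors, total counts, no filter, summed Nynrin CKO pairs, abundant genes removed, and the length and GC trend removed, 1 with upper-quartile factors, 5 with a library set term, 6 with the 5 libraries with more receptor reads, 6 with DESeq2 and 12 with limma-voom, and ran from 0 to 7 when 1 library was left out. No alternative called a gene of the set lower. Calls over all tested genes moved as well. From 611 higher they fell to 13 with RLE factors, 225 with upper-quartile factors, 59 with total counts and 33 with no filter. They fell to 0 with summed pairs, 25 without abundant genes and 4 with the length and GC trend removed. They rose to 1221 with a library set term, 1311 in the 5 libraries, 1656 with DESeq2 and 1649 with limma-voom. The median log2 fold change of 0.32 became 0.22 with upper-quartile factors, 0.065 with total counts and 0.19 with the length and GC trend removed, and ran from 0.26 to 0.43 when 1 library was left out.

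Replicate numbers gave no clear pairing of the libraries. Same-numbered controls and Nynrin CKO libraries correlated at 0.201, 0.239, -0.358 and 0.466 in their deviations. The best Nynrin CKO library of another number gave 0.188, 0.229, 0.379 and 0.456. Numbers 1, 2 and 4 thus matched best by a small margin, and number 3 did not. With the number as a replicate block, 0 genes were called higher and the median was 0.32, and of all tested genes 0 were called.

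Over 22 alternatives Grpel1 was called in 8 and Timm17a in 7, with log2 fold changes of 0.44 to 0.85 and 0.29 to 0.77, all above 0. For 28 genes followed singly, 545 values kept their side of the threshold and their sign, 29 no longer passed, 26 newly passed and 16 changed sign. Tomm70a was -0.017 with upper-quartile factors, -0.21 with total counts, -0.0068 with a filter of 1 CPM in 4 libraries, -0.0043 with a library set term, -0.17 in the 5 libraries and -0.020 with limma-voom. Total counts gave -0.14 for Timm10, -0.12 for Grpel2, -0.16 for Hspa9, -0.0076 for Hspd1 and -0.069 for Gfer, and upper-quartile factors -0.0065 for Hspa9. Removing the length and GC trend gave -0.24 for Timm10, -0.0035 for Gfer and -0.059 for Pam16. Leaving out 1 library gave -0.0038 to 0.20 for Timm10. With total counts the construction, which drops the composition correction, shifts all genes together; the cause of the others was not tested. The count filter kept Tomm20l and Timm8a2, at 0 to 21 counts per library, out of the test.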
